A study of Mus musculus with 21 samples.

Results

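The Ccl2 to Ccl8 chemokine cluster is a run of 5 small genes on the plus strand of mouse chromosome 11, in the order Ccl2, Ccl7, Ccl11, Ccl12 and Ccl8. Its members were taken as the 3′ intervals of the deposited table that lie on that strand within a fixed window of build mm39, in which the intervals ran from position 81926436 to 82007625. Of overlapping intervals the one with the most reads was kept, and separate intervals of 1 transcript were summed. The window held 10 intervals, of which 8 were left after overlaps were removed, and these formed 5 loci of 46278 in the table. The table gives transcript IDs and no gene symbols, so the 5 names follow from position and order. The supplied mouse reference, which uses another build, lists the same 5 chemokine genes and 1 long non-coding RNA in the corresponding stretch. The distances between neighbouring 3′ ends in the table differed from that reference by at most 1 base.

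CC chemokines are small secreted proteins that draw white blood cells along a gradient and into tissue. Ccl2, Ccl7 and Ccl12 bind the receptor CCR2, which inflammatory monocytes carry, and recruitment of CCR2-bearing monocytes is a well-known part of the response of the injured heart. Ccl11, or eotaxin, binds CCR3 on eosinophils. Mouse Ccl8 acts through CCR8, whereas human CCL8 uses other receptors that include CCR2. In heart tissue such chemokines can be made by several cell types, among them resident macrophages, fibroblasts, endothelium and cardiomyocytes.

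Reads were counted in 21 libraries, 1 per mouse, prepared from the left ventricular free wall by SLAM-IT-seq. In this method 4-thiouracil enters new RNA mainly where the enzyme uracil phosphoribosyltransferase (Uprt) is present, and alkylation then turns it into a T>C conversion in the reads. Every mouse carried Myh6MCM Tg/0, a tamoxifen-activated Cre recombinase under the cardiomyocyte promoter of Myh6, and every mouse received tamoxifen on 4 days at 6 to 8 weeks of age, so the controls had both the Cre and the drug. All mice were given 4-thiouracil 2 weeks after tamoxifen and their hearts were collected 6 hours later. F marks the floxed allele of Lmna, the gene for lamin A/C, a protein that lines the nuclear envelope. The genotypes were Lmna F/F with Uprt Tg/0 (6 mice, 4 females and 2 males), Lmna +/+ with Uprt Tg/0 (8 mice, 4 females and 4 males), Lmna F/F without Uprt (4 mice, 2 females and 2 males) and Lmna +/+ without Uprt (3 mice, 0 females and 3 males). These 2 pairs of genotypes shared no animals. The Cre acts in cardiomyocytes, while the libraries hold RNA of every cell of the ventricular wall. A change in reads per gene therefore cannot be divided into more cells of a type and more RNA per cell. The labels name 1 mouse per library, so the spread between libraries is a spread between animals.

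Libraries held 25947355 to 50951631 reads on the loci, of which 1124258 to 2414184 carried a T>C conversion. Over nuclear loci, 5.30% ± 0.330 of reads were T>C reads in Lmna F/F hearts with Uprt (SD, n = 6) and 5.01% ± 0.453 in Lmna +/+ hearts with Uprt (SD, n = 8). Without Uprt the share was 3.53% ± 0.307 in Lmna F/F hearts (SD, n = 4) and 3.15% ± 0.417 in Lmna +/+ hearts (SD, n = 3), so most of the T>C share measured with Uprt was also present without it. Mitochondrial transcripts took 23.7% to 33.6% of reads. The levels of Lmna and of cell type markers are not given here, because transcript IDs could not be paired with symbols beyond this cluster.

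The Ccl2 locus held 3172 reads over the 21 libraries, and its most read interval ran from 81927309 to 81928276. Ccl7 held 2580 reads at 81937917 to 81938351. Ccl11 held only 124 reads at 81953138 to 81953781. Ccl12 held 1759 reads, most of them at 81993936 to 81994193, and Ccl8 held 12951 reads at 82007461 to 82007625. All are 3′ UTR intervals of the plus strand on mm39. The intervals differ in length and the library kit reads transcript ends, so totals are not compared between genes. Reads that also map elsewhere were rare in these paralogous genes, with 11 for Ccl7, 3 for Ccl8, 1 for Ccl11 and 0 for Ccl2 and Ccl12.

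The supplied RefSeq promoter table (GRCm38.p6, a build that differs from that of the counts) holds 2 of the 5 genes, Ccl12 and Ccl8. They are neighbours in the cluster, and as the only members available there their 250 bases before the transcription start are shown, with the TATA box in capitals. The Ccl12 stretch is chr11:82101595-82101844 and the Ccl8 stretch is chr11:82114935-82115184, both on the plus strand.
Ccl12: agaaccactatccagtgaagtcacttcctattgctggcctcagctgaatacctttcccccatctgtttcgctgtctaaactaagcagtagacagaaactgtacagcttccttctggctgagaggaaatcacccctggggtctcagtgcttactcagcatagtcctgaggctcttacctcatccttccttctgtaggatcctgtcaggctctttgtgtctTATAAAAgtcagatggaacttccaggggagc
Ccl8: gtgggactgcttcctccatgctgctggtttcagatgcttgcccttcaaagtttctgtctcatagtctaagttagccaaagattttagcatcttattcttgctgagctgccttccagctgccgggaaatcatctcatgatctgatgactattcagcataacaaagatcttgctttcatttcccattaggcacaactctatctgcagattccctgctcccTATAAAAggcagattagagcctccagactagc
Both hold the letters TATAAAA, which begin 31 bases before the start in Ccl12 and 32 bases before it in Ccl8. On the sense strand 3.27% of 32851 promoter windows hold these letters. From the TATA box on, 16 of 31 bases are identical without gaps. This count includes the letters TATAAAA, on which the 2 stretches were aligned, so part of it was fixed beforehand. The other 4 motifs searched, on both strands of windows that also take in the 50 bases after the start, were TGANTCA for AP-1, TTCNNNGAA for STAT factors, GGG with any 5 bases and then CC for kappaB, and GAAA with any 2 bases and then GAAA for interferon response elements. They are present in 7.81%, 8.3%, 50.8% and 3.44% of all windows and in 0 of these 2, which says only that the letters are missing from these windows.

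Reads of the 3 CCR2 ligands Ccl2, Ccl7 and Ccl12 and of Ccl8 were higher in Lmna F/F hearts than in Lmna +/+ hearts, both in mice with Uprt and in mice without it. Ccl11, the eotaxin of the cluster, did not pass the test in either pair. By edgeR's quasi-likelihood test, 4 of 5 genes were called higher and 0 lower with Uprt, where 3.54% of the 20523 loci tested were called higher. Without Uprt the same count was 4 of 5, against 5.42% of loci. Of all loci called in either direction, 80.7% were higher with Uprt and 60.8% without, and these shares were 98.3% and 82.7% when libraries were scaled by size alone, which moved the median log2 fold change of all loci to 0.16 and 0.18 and left the same 4 genes called. All 5 genes passed the filter on low counts. The median log2 fold change of the 5 was 2.84 with Uprt and 4.39 without, beside medians over all loci of -0.0007 and 0.015. Every Lmna F/F heart with Uprt was above every Lmna +/+ heart with Uprt for 3 of the 5 genes, and 1.98% of loci showed this pattern. Without Uprt it held for 4 of 5 genes, and for 9.48% of loci. Without Uprt, edgeR called 0 of 5 in a fit of those 7 libraries alone, where it called only 5 of all 18702 loci tested. The log2 fold changes in that fit were 5.69 for Ccl2, 5.32 for Ccl7, 4.03 for Ccl12 and 4.73 for Ccl8 (edgeR adjusted p = 0.103, 0.12, 0.105 and 0.0651). No Lmna +/+ heart in it was female, so with the sex term these fold changes compare the 2 Lmna F/F males with the 3 Lmna +/+ males. With Uprt, edgeR called only Ccl8 of the 5 in a fit of males alone, where it called 205 of 20021 loci in either direction.

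Ccl2, the chief monocyte attractant, ranged over 2.61 to 10.4 CPM (counts per 1000000 reads, after TMM scaling) with a median of 5.10 in Lmna F/F hearts with Uprt, against 0 to 0.985 CPM with a median of 0.419 in Lmna +/+ hearts with Uprt. The ranges did not touch. In raw counts this was 104 to 458 reads per library in Lmna F/F, against 0 to 34 in Lmna +/+, and the library at 0 reads allows a level of up to 0.126 CPM. The log2 fold change was 3.58 ± 0.55 (SE, adjusted p = 0.000262 by edgeR), a 12.0-fold difference and rank 40 of the 20523 loci by size of increase. Without Uprt, Ccl2 had 24.3, 10.1, 2.83 and 1.49 CPM in Lmna F/F hearts, against 0.219, 0.127 and 0.379 CPM in Lmna +/+ hearts. Each Lmna F/F heart was above each Lmna +/+ heart, but the Lmna F/F hearts themselves differed by up to 16.3-fold. On the log2 scale Lmna F/F was higher by 5.21 ± 0.91 (SE, adjusted p = 0.00109 by edgeR), and by 3.46 when Lmna F/F replicate 1 was left out.

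Ccl7, also known as MCP-3, behaved much like Ccl2 in both pairs. It ranged over 2.10 to 7.08 CPM with a median of 3.58 in Lmna F/F hearts with Uprt, against 0.0324 to 1.32 CPM with a median of 0.351 in Lmna +/+ hearts with Uprt. These ranges did not overlap, and the highest Lmna +/+ value belonged to replicate 8, where the next was 0.504 CPM. This gave a log2 fold change of 3.15 ± 0.56 (SE, adjusted p = 0.0011 by edgeR), or 8.88-fold. Without Uprt, Ccl7 had 18.3, 12.5, 3.07 and 0.511 CPM in Lmna F/F hearts, against 0.384, 0.279 and 0.0632 CPM in Lmna +/+ hearts. The lowest Lmna F/F heart stood just above the highest Lmna +/+ heart, with 25 reads against 14. Here the log2 fold change was 4.92 ± 0.93 (SE, adjusted p = 0.00192 by edgeR), and 3.14 without Lmna F/F replicate 1.

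Ccl12, a rodent chemokine also called MCP-5, ranged over 0.933 to 5.45 CPM with a median of 3.02 in Lmna F/F hearts with Uprt, against 0.0738 to 2.07 CPM with a median of 0.325 in Lmna +/+ hearts with Uprt. These ranges overlapped, because Lmna +/+ replicate 8 reached 2.07 CPM and only 3 of the 6 Lmna F/F hearts were above it. The log2 fold change was 2.30 ± 0.52 (SE, adjusted p = 0.0107 by edgeR), or 4.91-fold. Without Uprt, Ccl12 had 9.61, 6.04, 2.66 and 1.04 CPM in Lmna F/F hearts, against 0.219, 0.481 and 0.274 CPM in Lmna +/+ hearts, with no overlap. This difference was 3.44 ± 0.83 on the log2 scale (SE, adjusted p = 0.011 by edgeR). It lost its call when Lmna F/F replicate 1 was left out (log2 1.79, adjusted p = 0.195 by edgeR), and likewise without Lmna +/+ replicate 1 (3.23, adjusted p = 0.0596) or replicate 3 (3.32, adjusted p = 0.0525).

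Ccl8, known as MCP-2 and in mouse a CCR8 ligand, had the smallest standard errors of the cluster. It ranged over 12.6 to 31.5 CPM with a median of 24.2 in Lmna F/F hearts with Uprt, against 1.31 to 5.59 CPM with a median of 3.29 in Lmna +/+ hearts with Uprt. The lowest Lmna F/F library held 582 reads and the highest Lmna +/+ library 173. The log2 fold change was 2.84 ± 0.32 (SE, adjusted p = 9.06e-06 by edgeR), or 7.15-fold. Without Uprt, Ccl8 had 71.4, 31.6, 5.27 and 37.6 CPM in Lmna F/F hearts, against 1.95, 1.82 and 2.36 CPM in Lmna +/+ hearts. Replicate 3 was the low one among the Lmna F/F hearts and was still above all Lmna +/+ hearts. On the log2 scale Lmna F/F was higher by 4.39 ± 0.53 (SE, adjusted p = 8.63e-05 by edgeR), and by 3.93 without Lmna F/F replicate 1.

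Ccl11 was close to the limit of detection. It had 1 to 15 reads per library (median 2.5) in Lmna F/F hearts with Uprt, against 1 to 13 reads (median 2) in Lmna +/+ hearts with Uprt. The groups overlapped, with a median of 0.0621 CPM in Lmna F/F and 0.0570 CPM in Lmna +/+, and the log2 fold change was 0.39 ± 0.76 (SE, adjusted p = 0.845 by edgeR). Without Uprt, Ccl11 had 0.445, 0.425, 0.244 and 0.102 CPM in Lmna F/F hearts, against 0.137, 0.0759 and 0.169 CPM in Lmna +/+ hearts. These too overlapped, and the log2 fold change was 1.20 ± 1.08 (SE, adjusted p = 0.57 by edgeR). Its 95% intervals were -1.17 to 1.94 with Uprt and -1.03 to 3.43 without, so at this depth a difference of a few-fold could not be told from none.

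**Figure D1:**
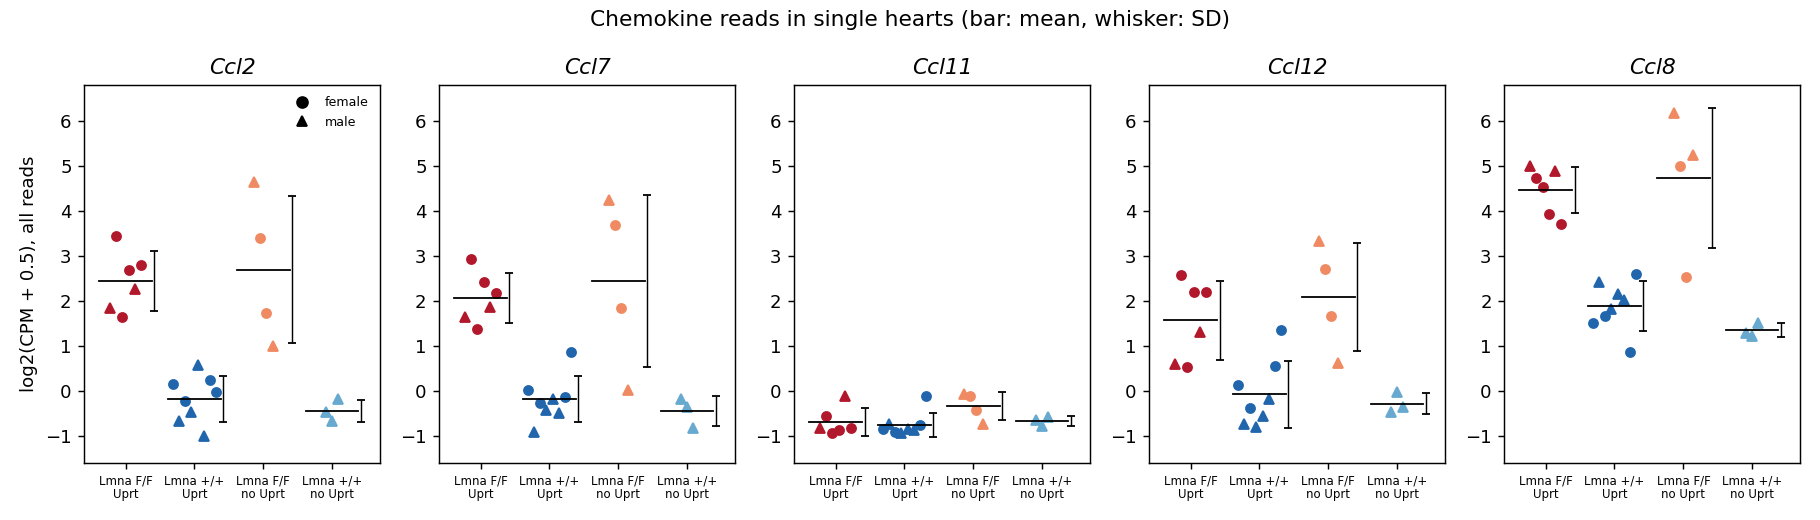
Each point is 1 heart (circle, female; triangle, male), plotted as log2(CPM + 0.5) of all reads for each gene, with the group mean as a bar and its SD as a whisker. Lmna F/F hearts with Uprt lie above all Lmna +/+ hearts with Uprt for Ccl2, Ccl7 and Ccl8. On this scale, with 0.5 CPM added, Lmna F/F hearts without Uprt are the most spread group for these genes. In CPM alone, Ccl7 spanned 40.9-fold in Lmna +/+ hearts with Uprt and 35.8-fold in Lmna F/F hearts without Uprt.

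The difference in Lmna effect between the pairs passed the test for 0 of 5 genes. All 5 estimates were larger without Uprt. A setting chosen after seeing the data left out Lmna F/F replicates 1 and 2 without Uprt together. For Ccl2, Ccl7, Ccl11 and Ccl12 these were the 2 highest hearts of their group, so a smaller effect without Uprt was fixed beforehand. For Ccl8, replicate 4 ranked above replicate 2. In that setting only Ccl8 kept the direction (-0.69). Ccl2, Ccl7, Ccl11 and Ccl12 turned to 0.80, 1.19, 0.08 and 0.83, from which no conclusion is drawn. With all libraries, the difference by edgeR passed for 0 of all 20523 loci (0%), of which 1743 had an unadjusted p below 0.05. DESeq2 called 5 loci, none of them in the cluster. The largest differences against their own error were those of Ccl8, -1.55 ± 0.56 on the log2 scale (SE, 95% interval -2.71 to -0.40, edgeR unadjusted p = 0.0106, adjusted p = 0.532), and Ccl7, -1.77 (edgeR adjusted p = 0.664). For Ccl2 it was -1.63 with a 95% interval of -3.71 to 0.45 (edgeR adjusted p = 0.685). For Ccl12 it was -1.14 and for Ccl11 -0.81. The interval of Ccl2 holds both no difference and a several-fold one. The plot of log2 fold changes shows the pairs side by side.

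**Figure D2:**
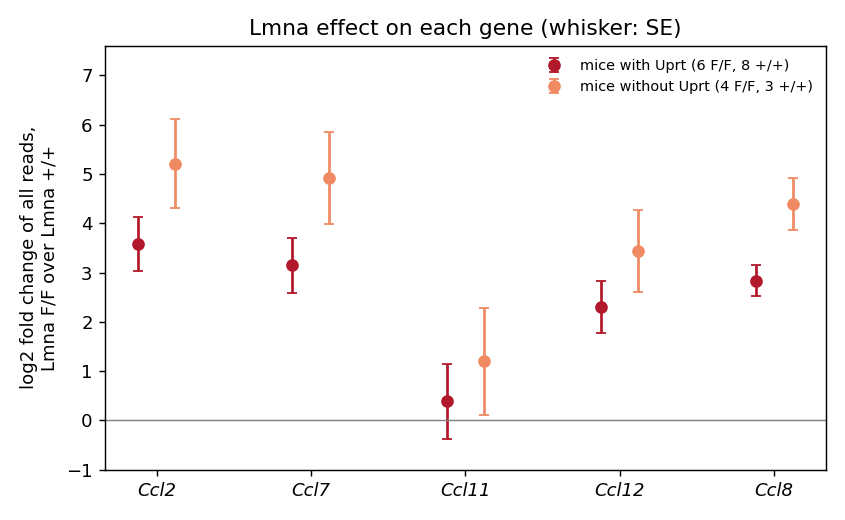
The points are log2 fold changes of all reads, Lmna F/F over Lmna +/+, for each gene in mice with Uprt and in mice without Uprt, and the whiskers are SE. Estimates without Uprt are the higher of each pair and have the longer whiskers, and both estimates of Ccl11 lie nearest 0.

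The hearts of 1 group differed from each other far more for Ccl2, Ccl7 and Ccl12 than most loci did. The tagwise biological coefficient of variation, the spread between hearts that edgeR estimates beyond counting error, was 0.651 for Ccl2, 0.662 for Ccl7, 0.636 for Ccl12, 0.789 for Ccl11 and 0.393 for Ccl8. Over all loci tested its quartiles were 0.177, 0.271 and 0.491, so only Ccl8 lay within the middle range. These values were not adjusted for the level of reads. Among Lmna F/F hearts without Uprt the highest heart exceeded the lowest 16.3-fold for Ccl2, 35.8-fold for Ccl7, 9.21-fold for Ccl12 and 13.5-fold for Ccl8. Among Lmna F/F hearts with Uprt the same ratios were 3.99, 3.37, 5.84 and 2.49. Among Lmna +/+ hearts with Uprt the ratio was 40.9 for Ccl7, 28.0 for Ccl12 and 4.26 for Ccl8. The lowest of these hearts held 1, 3 and 45 reads, and for Ccl2 the lowest held 0. Lmna +/+ hearts without Uprt gave 3.0 for Ccl2, 6.07 for Ccl7, 2.2 for Ccl12 and 1.3 for Ccl8. The sum of the 5 genes was 124, 60.6, 14.1 and 40.8 CPM in Lmna F/F replicates 1 to 4 without Uprt.

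Ccl2, Ccl7 and Ccl12 were correlated with each other over the Lmna F/F hearts with Uprt, and no correlation of Ccl8 with them passed the test. Pearson's r was computed between genes within the 2 groups of at least 6 hearts, 12 relations in all. In the 6 Lmna F/F hearts with Uprt, Ccl2 and Ccl7 gave r = 0.978 (exact permutation p = 0.00556, adjusted p = 0.0222) and Spearman's rho = 0.943 (exact permutation p = 0.0167, adjusted p = 0.0667). Ccl7 and Ccl12 gave r = 0.945 (exact permutation p = 0.00278, adjusted p = 0.0222) and rho = 1 (exact permutation p = 0.00278, adjusted p = 0.0333). Ccl2 and Ccl12 gave r = 0.966 (exact permutation, adjusted p = 0.0222) and rho = 0.943. Without the 2 hearts farthest from the median these r values were 0.910, 0.954 and 0.993. Ccl8 gave r = -0.327 with Ccl2 (exact permutation p = 0.5, adjusted p = 0.667), -0.269 with Ccl7 and -0.530 with Ccl12. Without the 2 farthest hearts these were -0.944, -0.889 and -0.372, so their size depends on which hearts are included. All 3 coefficients of Ccl8 were below 0, and the difference between them and the other 3 was not tested.

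In the 8 Lmna +/+ hearts with Uprt, Ccl7 and Ccl12 gave r = 0.870 (exact permutation p = 0.0123, adjusted p = 0.0369), which dropped to 0.551 without the 2 farthest hearts and so rests on them. The other 5 relations in that group did not pass after adjustment. In the 4 Lmna F/F hearts without Uprt, too few for a correlation, replicates 1, 2, 3 and 4 ranked in that order from high to low for Ccl2, Ccl7, Ccl11 and Ccl12. For Ccl8 replicate 1 was again the highest, but replicate 4 came next and replicate 3 was the lowest. The scatter of gene pairs shows both patterns.

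**Figure D3:**
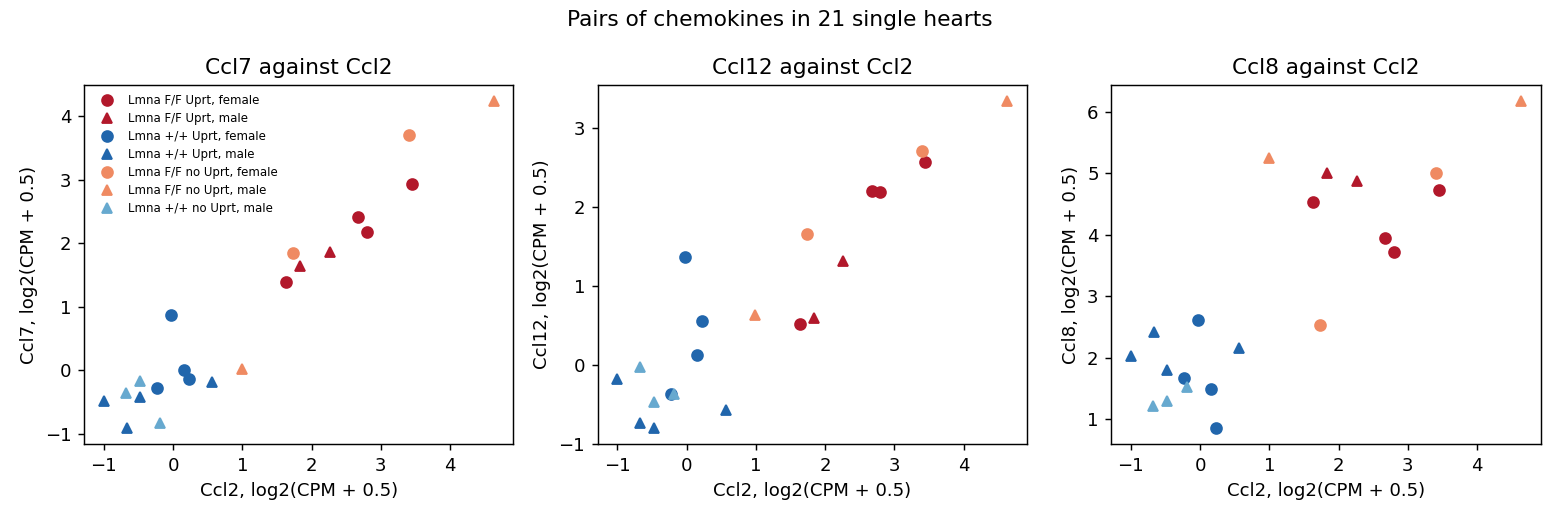
Each point is 1 of 21 hearts, coloured by group (circle, female; triangle, male), with Ccl7, Ccl12 or Ccl8 on the vertical axis and Ccl2 on the horizontal axis, all as log2(CPM + 0.5). Ccl7 and Ccl12 lie near a line with Ccl2 across Lmna F/F hearts, while Ccl8 separates Lmna F/F hearts from Lmna +/+ hearts without following Ccl2 among the Lmna F/F hearts.

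In Lmna F/F hearts with Uprt, Ccl8 was 28.9 and 31.5 CPM in the 2 males and 12.6 to 26.0 CPM in the 4 females, and without Uprt it was 37.6 and 71.4 CPM in the 2 males and 5.27 and 31.6 CPM in the 2 females. Both males were thus the highest of each Lmna F/F group, but in Lmna +/+ hearts with Uprt Ccl8 overlapped, at 3.00 to 4.85 CPM in 4 males and 1.31 to 5.59 CPM in 4 females. With Uprt, Ccl12 had 1.00 and 1.98 CPM in the 2 Lmna F/F males and 0.933 to 5.45 CPM in the 4 Lmna F/F females, and without Uprt 1.04 and 9.61 CPM in the 2 males and 2.66 and 6.04 CPM in the 2 females, so the sexes overlapped. In Lmna +/+ hearts with Uprt, Ccl12 ran from 0.0738 to 0.379 CPM in 4 males and from 0.271 to 2.07 CPM in 4 females. There the overlap was narrow. Male over female, the log2 difference over all groups was 0.77 ± 0.28 for Ccl8 (SE, edgeR unadjusted p = 0.0109, adjusted p = 0.267) and -1.24 ± 0.50 for Ccl12 (SE, edgeR unadjusted p = 0.0189, adjusted p = 0.318). By edgeR 0 of the 5 genes passed, against 0.132% of all loci in either direction, and 2307 loci had an unadjusted p below 0.05. This comparison was added after the values were seen, DESeq2 was not run for it, and the part of sex in the order of the hearts was not tested further.

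T>C reads, which mark RNA made during labelling or a background conversion, were many enough for a test only for Ccl8. In mice with Uprt, Ccl8 had 52 to 98 T>C reads per library (median 62) in Lmna F/F hearts, against 2 to 21 (median 12) in Lmna +/+ hearts. The groups did not overlap. In CPM of T>C reads this was 34.9 ± 11.7 in Lmna F/F and 7.23 ± 4.66 in Lmna +/+ (SD, n = 6 and 8), which is 2.42 ± 0.38 on the log2 scale (SE, adjusted p = 0.00267 by edgeR) or 5.35-fold. It ranked 17 of the 9659 loci tested by size of increase, and 0.476% of these were called higher.

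In mice without Uprt, Ccl8 had 253, 96, 33 and 158 T>C reads in Lmna F/F hearts, against 5, 6 and 10 in Lmna +/+ hearts. The lowest Lmna F/F count was more than the highest Lmna +/+ count, and here too the share of loci with this pattern was not counted. On the log2 scale Lmna F/F was higher by 4.92 ± 0.59 (SE, adjusted p = 0.0228 by edgeR), where 0.0397% of 7552 loci were called higher. All 3 Lmna +/+ hearts were male, so with the sex term this estimate compares only the 2 Lmna F/F males (253 and 158 T>C reads) with them. Ccl8 passed the low-count filter here only through the genotype in which it is high, with 4 of 4 Lmna F/F libraries and 0 of 3 Lmna +/+ libraries past 7.79 CPM of T>C reads, so this call is a description. It was lost with no sex term (log2 4.31, adjusted p = 0.0642 by edgeR), when Lmna F/F replicate 1 was left out (4.10, adjusted p = 0.0535), and without Lmna +/+ replicate 1, 2 or 3 (adjusted p = 0.0843, 0.106 and 0.182 by edgeR, with log2 4.80 as the lowest). The other 4 genes did not pass the low-count filter in T>C reads. Ccl2 had 96 T>C reads over all Lmna F/F hearts with Uprt and 10 over all Lmna +/+ hearts with Uprt, and without Uprt 111 in Lmna F/F and 2 in Lmna +/+. Ccl7 had 21 and 6 with Uprt and 43 and 0 without, in the same order of genotypes, and Ccl12 had 37 and 6 with Uprt and 18 and 1 without.

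The T>C share, the percentage of a gene's reads that carry a conversion, did not pass the test as higher with Uprt for any of the 3 members that could be tested. By edgeR's test on converted and other reads, 58.5% of 11938 loci had a higher share with Uprt, with a median log2 difference over all loci of 1.14, and 0 of 3 members did. Ccl8 differed by -0.09 ± 0.30 on the log2 scale (SE, 95% interval -0.71 to 0.53, edgeR adjusted p = 0.807). Its interval lies below the median of all loci, and its sign turned in Lmna +/+ mice alone (0.44). Ccl2 differed by -0.24 ± 0.81 (SE, adjusted p = 0.818 by edgeR) and Ccl12 by 1.03 ± 0.94 (SE, adjusted p = 0.356 by edgeR), with errors too wide to separate 0 from that median. Ccl7 and Ccl11 did not pass the low-count filter on T>C reads for this test. Ccl2 and Ccl12 passed it only through Lmna F/F libraries.

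In pooled reads the Ccl8 share was 7.84% in Lmna F/F hearts with Uprt (95% exact interval 7.14% to 8.58%, 426 of 5436 reads) and 10.4% in Lmna +/+ hearts with Uprt (8.48% to 12.6%, 93 of 894). The mice lacking Uprt had 8.48% in Lmna F/F hearts (7.81% to 9.19%, 540 of 6366) and 8.24% in Lmna +/+ hearts (5.17% to 12.3%, 21 of 255). These intervals are Clopper-Pearson, and like the floors they cover counting error only, since the reads carry no molecular identifiers. Heart by heart, the Ccl8 share averaged 7.95% ± 1.64 with Uprt and 9.94% ± 3.58 without Uprt in Lmna F/F hearts (SD, n = 6 and 4; two-sided exact permutation p = 0.324, adjusted p = 1 over 10 tests, smallest possible p = 0.00952). In Lmna +/+ hearts it averaged 9.76% ± 4.20 with Uprt and 8.10% ± 0.965 without (SD, n = 8 and 3; exact permutation p = 0.521, adjusted p = 1). The Ccl8 share exceeded the nuclear share of the same library in 19 of 21 libraries, among them all 7 without Uprt.

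The Ccl2 share was 6.91% in Lmna F/F hearts with Uprt (95% exact interval 5.63% to 8.37%, 96 of 1390 reads) and 6.81% in Lmna F/F hearts without Uprt (5.63% to 8.14%, 111 of 1631). In Lmna +/+ hearts its reads were few, with 8.33% with Uprt (4.07% to 14.8%, 10 of 120) and 6.45% without (0.791% to 21.4%, 2 of 31). Ccl7 was low in the Lmna F/F groups, at 2.09% with Uprt (1.29% to 3.17%, 21 of 1007) and 3.00% without (2.18% to 4.03%, 43 of 1431). In Lmna +/+ hearts Ccl7 had 5.26% with Uprt (1.96% to 11.1%, 6 of 114), and without Uprt 0 of 28 reads, for which 3 reads would be a share of 10.7% and the exact interval reaches 12.3%. Ccl12 had 4.88% with Uprt (3.46% to 6.67%, 37 of 758) and 2.22% without (1.32% to 3.48%, 18 of 812) in Lmna F/F hearts. In Lmna +/+ hearts Ccl12 had 6 T>C reads of 149 with Uprt and 1 of 40 without, and Ccl11 had at most 1 T>C read in any group. Tested over hearts, the exact permutation p of the Lmna F/F difference was 0.467 for Ccl2, 0.886 for Ccl7 and 0.448 for Ccl12 (each adjusted p = 1).

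Because the intervals differ in their number of T positions, conversions per base read over a T allow the genes to be set beside each other. In Lmna F/F hearts with Uprt there were 3.30 conversions per 1000 bases over T for Ccl8, 2.40 for Ccl2, 1.54 for Ccl12 and 0.665 for Ccl7, beside a mean of 2.72 over nuclear loci. In Lmna F/F hearts without Uprt they were 3.58, 2.28, 0.677 and 0.913, beside 1.74. Ccl8 and Ccl2 were thus above the nuclear mean without Uprt and Ccl7 and Ccl12 below it, whatever the differences in interval length. With Uprt only Ccl8 was above the nuclear mean by this measure, and pooled Ccl2 was below it although its T>C share was above the nuclear share. These rates pool the hearts of a group and carry no error, and their order against the nuclear mean was not tested. For Ccl2, Lmna F/F hearts with Uprt differed, with 0 conversions over 3202 bases in replicate 3 and 33 over 8872 in replicate 4. Whether a sequence variant or a conversion from another source adds to these rates was not tested.

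**Figure D4:**
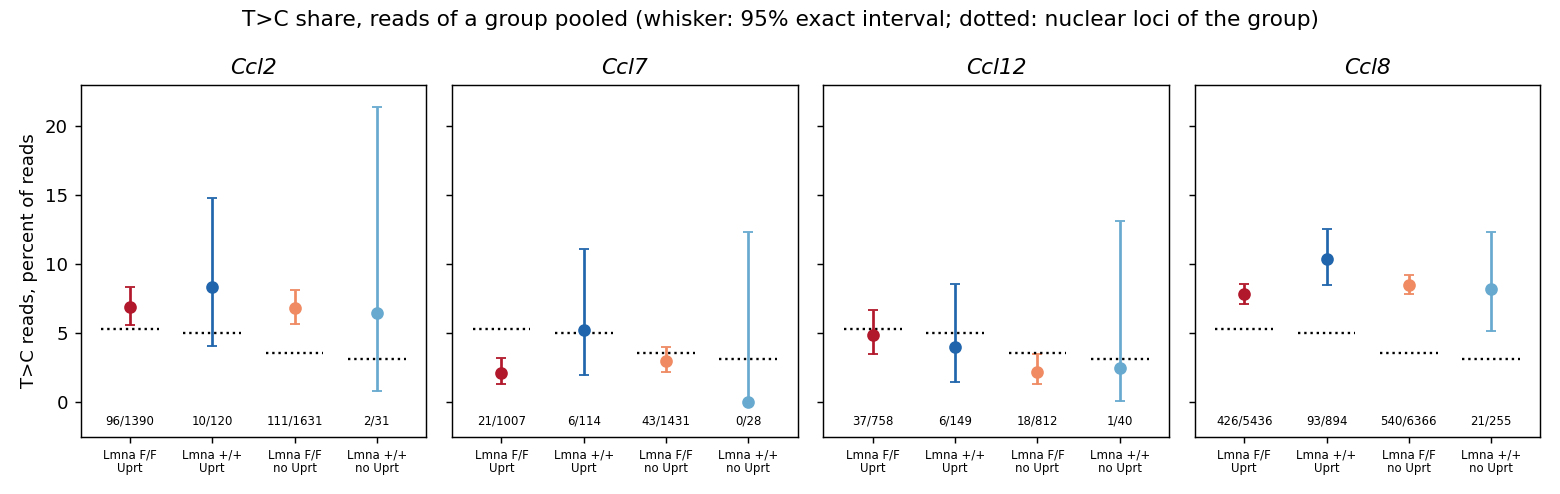
The points are T>C reads as a percentage of all reads of a gene, pooled within each group, with 95% exact intervals as whiskers, the counts printed beneath, and the mean share of nuclear loci as a dotted line. For Ccl8 and Ccl2 the points in Lmna F/F hearts are above the dotted line both with and without Uprt, and for Ccl7 they are below it.

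Within 1000 kb on either side 14 other loci were tested, all of them at least 648 kb beyond its end. With Uprt their log2 fold changes between Lmna F/F and Lmna +/+ hearts ran from -0.56 to 1.49 (median 0.20), and edgeR called 2 higher and 0 lower, where 3.54% of all loci were called higher. Without Uprt they ran from -0.71 to 2.39 (median 0.17), with 3 higher and 1 lower, where 5.42% of all loci were called higher.

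The loci whose levels resembled those of the members most, by Pearson's r of log2(CPM + 0.5) over the same 21 libraries and as a description, lay on other chromosomes and are given by position on mm39. Ccl2 was most like a plus-strand locus on chromosome 14 at 75466779 to 75468256 (r = 0.971), which averaged 27.3 CPM in Lmna F/F and 7.70 CPM in Lmna +/+ hearts with Uprt, and 41.4 CPM in Lmna F/F and 7.92 CPM in Lmna +/+ hearts without. Ccl7 and Ccl12 shared their best match, a minus-strand locus on chromosome 16 at 52069359 to 52072009 (r = 0.961 and 0.929). Ccl8 was most like a locus on chromosome 2 at 27927029 to 27929526 (r = 0.967) and a short one on chromosome 3 at 90513212 to 90513352 (r = 0.964). All of these correlations include the difference between genotypes. For Ccl11 the best match reached r = 0.914, with a locus on chromosome 8 at 23272123 to 23272860.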

How the data were processed

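The members, lists and tests were chosen with earlier results of these data known. Left ventricular RNA was alkylated and made into QuantSeq 3′ libraries that keep strand, read as 100 bases from 1 end, per the labels' protocols. The deposited table has 208307 intervals for each of 21 libraries in the layout of SlamDunk, and its reads, T>C reads, multimapped reads, bases over T and conversions are raw counts, per the file headers. Positions refer to mm39, as the submitters' processing notes name it. Not given in the sources used here are the aligner, its settings and how many conversions make a T>C read. The deposited CPM column was treated as a score, because its values do not sum as CPM do, and was not used. The deposited conversion rate is a fraction, per the file headers, and was recomputed from the counts. The table held 0 columns or rows of samples outside the labels.

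Overlapping intervals of 1 strand were reduced to the most read, and separate intervals sharing a transcript were summed. Counts went into edgeR 4.0.16 under R 4.3.3 (filterByExpr with a minimum count of 10, TMM, glmQLFit, glmQLFTest, Benjamini-Hochberg over all loci tested, threshold 0.05). For all reads 1 model took every library, with a mean for each group and a sex term. T>C reads had separate models with and without Uprt, each with sex. The T>C share used converted and other reads of each library as 2 columns, with a library effect and terms for Uprt, Lmna and sex. Each test was first tested on simulated data. CPM values use TMM-scaled library sizes, and 0.5 CPM was added before logarithms. Exact permutation tests and intervals used SciPy 1.17.1 in Python 3.11.15. Replicates are numbered in accession order. All 5 members were named in every comparison, with the loci most like each.

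The supplied reference matched 0 of the transcript IDs, so the chemokine receptor, pathway and cell type lists were not run. Alternatives were DESeq2 1.42.0, DESeq2 size factors, library size alone, no sex term, no low-count filter, the libraries of 2 groups only, males alone, the most read interval alone, no multimapped reads, and each library left out. Leaving out replicates 1 and 2 of Lmna F/F without Uprt together was added after seeing the data.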

Additional observations from a re-analysis of the deposited data

Results flagged for a closer look

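Among 24 groups of 4 to 8 hearts examined by Dixon's criterion, with CPM not on a log scale, 4 had a heart far from the others. The criterion's rate of about 1 in 20 by chance assumes independent and normally distributed values, so these 4 flags are not set against it. Of these, 3 concern Lmna +/+ replicate 8 with Uprt, a female. That heart had 1.32 CPM of Ccl7, where the next of its group had 0.504 CPM. It had 0.420 CPM of Ccl11 beside 0.0971 CPM, and 2.07 CPM of Ccl12 beside 0.962 CPM. Its Ccl8 was also the highest of the group at 5.59 CPM, though not by a wide gap, and its Ccl2 was 0.484 CPM, in the middle of the group. The remaining one is the Ccl8 T>C share of Lmna F/F replicate 3 without Uprt, at 15.3% where the next heart had 8.59%. That heart also had the lowest Ccl8 level of its group, 5.27 CPM, and its share rests on 33 of 216 reads.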

How the results depend on the processing

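With Uprt, Ccl2, Ccl7, Ccl12 and Ccl8 remained called higher in all reads (4 of 5) with DESeq2, DESeq2 size factors, library size alone, no sex term, no low-count filter, the libraries of the 2 groups only, the most read interval alone, no multimapped reads, and each of 14 libraries left out in turn. With males alone the count was 1, with Ccl2, Ccl7 and Ccl12 at log2 3.39, 3.69 and 3.12 (edgeR adjusted p = 0.0891, 0.0734 and 0.0645), from 2 Lmna F/F mice. Without Uprt the count was 3 to 4 over the 7 libraries left out in turn and 4 under the other settings named, except that it was 0 with the libraries of the 2 groups only, where edgeR called 5 loci in all. It was 1, Ccl8 alone, when Lmna F/F replicates 1 and 2 were left out together, a setting chosen after seeing the data (Ccl2 log2 2.69, edgeR adjusted p = 0.093). These hearts were the 2 highest of their group for Ccl2, Ccl7, Ccl11 and Ccl12, so lower estimates for these genes were fixed beforehand. For the difference between the pairs, no low-count filter gave 2 (Ccl7 and Ccl8) in place of 0. In T>C reads with Uprt, no low-count filter gave 2 (Ccl2 with Ccl8), and leaving out libraries gave 1 throughout. Without Uprt, no low-count filter gave 3, no sex term 0 (Ccl8 log2 4.31, edgeR adjusted p = 0.0642), and libraries left out 0 to 1. The T>C share gave 0 under every setting run, but some settings tested fewer members, and in Lmna +/+ mice alone only Ccl8 was tested. Direction turned for no called gene. Among uncalled ones, the difference between the pairs turned to 0.80 for Ccl2, 1.19 for Ccl7, 0.079 for Ccl11 and 0.83 for Ccl12 without Lmna F/F replicates 1 and 2, and the Ccl8 T>C share to 0.44 in Lmna +/+ mice alone. With libraries left out in turn, Ccl11 with Uprt ran from -0.57 to 1.22, the Ccl8 share from -0.18 to 0.13 and the Ccl2 share from -0.47 to 0.021. Counts over all loci moved more: the 901 called with Uprt became 1380 with DESeq2, 1444 by library size alone, 1678 with no low-count filter, 1369 in the 2 groups only, 205 in males alone, and 520, 508 and 599 without Lmna F/F replicates 1, 2 and 3. The 1828 called without Uprt became 5 in the 2 groups only, 1021 in males alone, 144 without Lmna F/F replicates 1 and 2 together, 544 and 1099 without Lmna F/F replicate 1 or 2, and 863, 973 and 1051 without Lmna +/+ replicates 1, 2 and 3. In T>C reads the 51 with Uprt became 99 with DESeq2 and 184 with no low-count filter, and the 3 without Uprt became 84 and 255, and 5 with no sex term, and ranged over 1 to 16 with libraries left out. Without a filter the difference between the pairs had 345 calls, and the 7009 calls of the T>C share became 3421 in Lmna +/+ mice alone. No paired analysis was possible because replicate numbers follow accession order and link no mice across groups. Depth limits Ccl11 and the T>C shares in Lmna +/+ hearts, and the cause of each change under an alternative was not tested, beyond fewer samples or more loci tested.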
